A study of Mus musculus with 9 samples.

Results

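Laser treatment of the retina between the vessels was compared with no laser treatment by RNAseq. The comparison used 6 of the 9 libraries of the series, chosen by their treatment label: 3 of control laser-treated eyes and 3 of untreated eyes. All mice were C57BL/6J, 12 weeks old, and each library was made from a pool of 6 retinas, so that n counts pools and not mice. Mice of the control group received eosin Y, a dye that sensitizes tissue to light, at 200 mg/kg, and laser spots of 50 µm were set between the vessels at 50 mW for 2.5 s under anaesthesia. Their retinas were taken 2 days later, and the fellow eye of each of these mice had its veins occluded by laser. Untreated retinas came from other mice without laser treatment, and it is not stated whether those mice received eosin Y or the anaesthetic. The paper describes fundus imaging and angiography with rhodamine B before retinas were taken, for the untreated mice as well. Effects of the laser, eosin Y, the anaesthesia and the occlusion in the fellow eye cannot be told apart in this comparison.

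The retina is a layered tissue in which rods and cones pass their signal through bipolar cells to ganglion cells, with horizontal and amacrine cells acting between them. Mueller cells, the radial glia of the retina, span all layers and respond to injury with gliosis, a change in which they express intermediate filaments and secreted factors. Cytokines of the interleukin-6 family, which signal through the receptor subunit gp130 and the transcription factor STAT3, are known inducers of gliosis and of survival factors for photoreceptors. Microglia, the resident phagocytes, lose their surveying state after injury, and blood-derived leukocytes may enter.

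Expression differed between the groups for a majority of genes in the fit as reported, but not in every fit described below. Of 16066 genes tested, 4371 (27.2%) were higher and 4045 (25.2%) were lower in control laser-treated than in untreated eyes, 52.4% in all (adjusted p under 0.01 by the Benjamini-Hochberg method in the quasi-likelihood test of edgeR). The replicates were close, with a biological coefficient of variation of 7.49%, and 48.7% of the genes called changed by less than 1.5-fold. Most of the larger changes were increases. Over 2-fold, 1342 genes (8.35%) were higher and 383 (2.38%) lower. Over 4-fold the numbers were 398 and 25, and over 8-fold they were 179 and 4. Genes over 2-fold higher made up 1.13% to 1.26% of the counts of an untreated pool and 3.39% to 3.88% of those of a control pool, whereas genes over 2-fold lower made up 10.2% to 13.1% of an untreated and 4.23% to 4.47% of a control pool. In bulk RNA of whole retinas, fewer cells of a type and less RNA per cell cannot be told apart.

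The libraries also differed in ways that moved with the groups. Total counts were 12377572 to 15245869 in untreated and 18897218 to 23419497 in control pools, so genes of low expression were measured with less precision in untreated eyes. The share of counts in mitochondrially encoded genes was 7.73% to 9.92% in untreated and 3.32% to 3.87% in control pools. Fold changes increased with the GC content of the transcript, with a Spearman correlation of 0.606 across 15582 genes, which are not independent replicates. In the tenth of genes with the lowest GC content the median log2 fold change was -0.56 and 65.2% were lower, and in the tenth with the highest GC content it was 0.63 and 71.8% were higher, as the plot of medians by GC content shows. In the fifth of genes with the lowest GC content every untreated pool was above the mean of all 6 pools and every control pool below it, so the trend and the treatment cannot be told apart within these libraries. Each comparison was therefore also computed after the trend of each pool with GC content and transcript length was removed, and values from that fit are given as trend-removed. In it, 2800 of 15582 genes (18.0%) were higher and 3097 (19.9%) lower, so that the genes called were no longer a majority. Of genes over 2-fold higher in the first fit, 1082 of the 1308 with a trend-removed value were again called higher, and of those over 2-fold lower 275 of 362 were again called lower. Opposite calls in the fits were found for 218 genes. Scaling by library size only, in place of TMM factors, moved the median over all genes by 0.17 on the log2 scale, and directions that turn with this scaling are named where they occur.

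**Figure D1:**
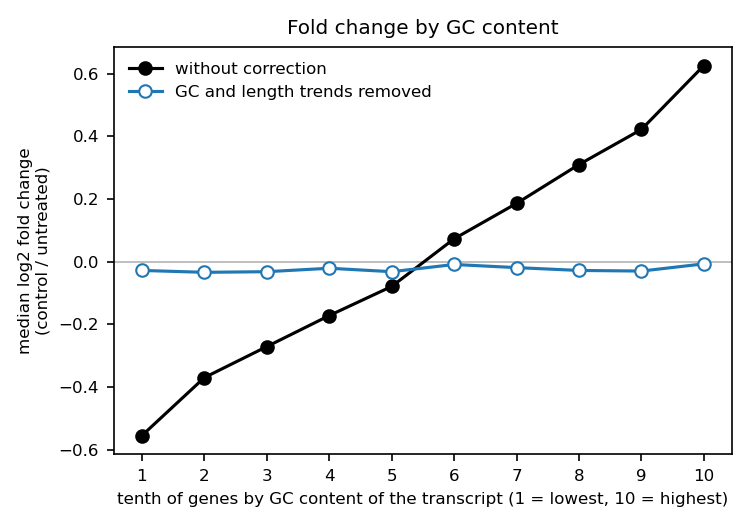
Median log2 fold change, control against untreated, of genes in 10 groups of equal size by GC content (x axis, 1 lowest to 10 highest), before (filled circles) and after (open circles) the GC and length trends of each pool were removed. Medians ran from -0.56 to 0.63 before removal and lay between -0.03 and -0.01 after it.

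Values below are counts per 1000000 (CPM) of the TMM-scaled library, listed for replicates 1 to 3 of each group, and log2 fold changes are control against untreated. Lists of genes are described by the number of tested members higher or lower at an adjusted p under 0.01 and by their median log2 fold change, to be read against 27.2% higher and 25.2% lower and a median of 0.01 over all genes tested. Some genes are members of more than 1 list. The CPM of control and untreated pools did not overlap for 69.8% of all genes tested. A lack of overlap in a named gene is to be read against that share. A gene with at most 3 counts in every untreated pool is given with a lower bound of its fold, computed against 3 counts per pool. This bound, written as at least, is not a confidence limit, as the control pools are taken as measured. Values given as SE are the absolute log2 fold change divided by the square root of the F statistic of the quasi-likelihood test. They are approximate, and may be too small for genes with few counts in untreated pools. The plot of list members gives the log2 fold changes of each gene.

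**Figure D2:**
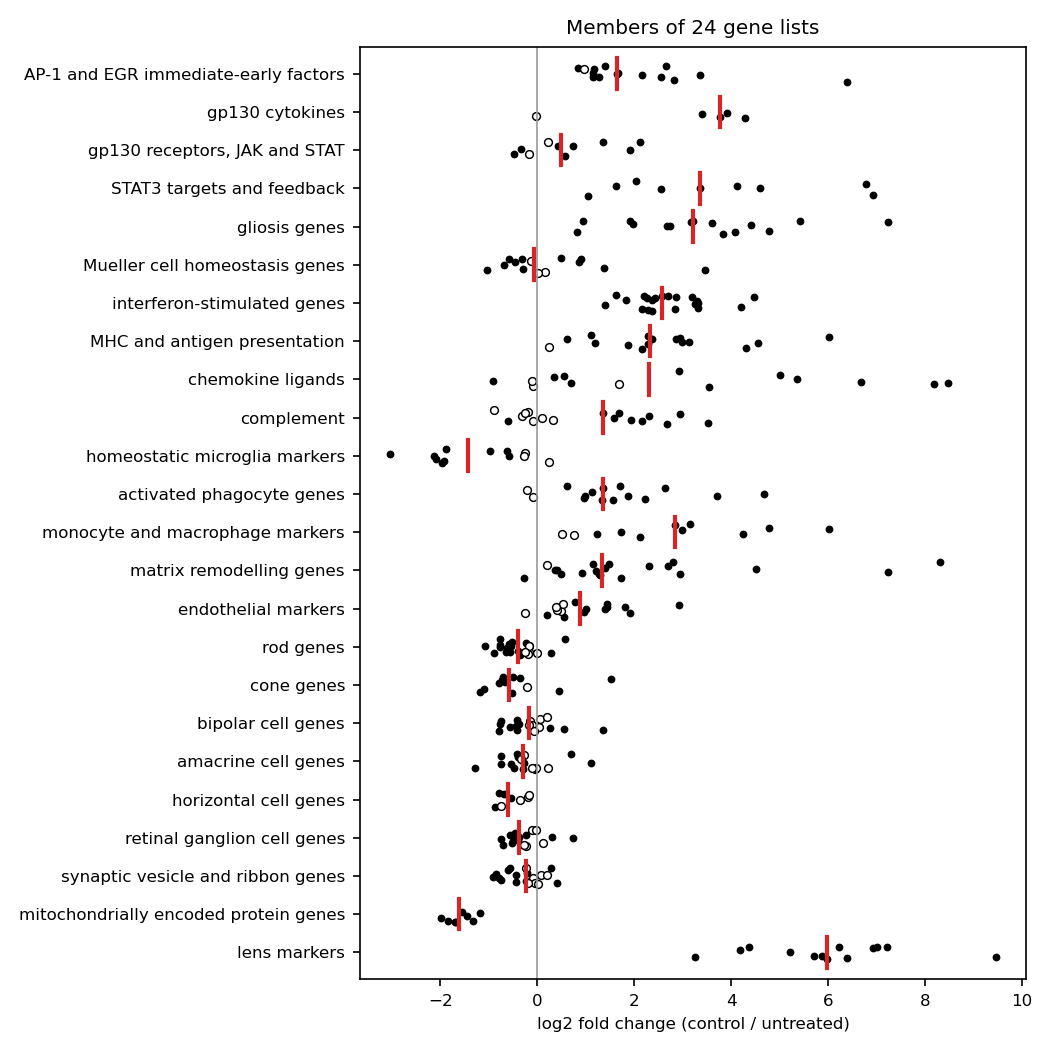
Log2 fold change, control against untreated (x axis), of the tested members of 24 gene lists (y axis); filled points passed an adjusted p under 0.01, open points did not, bars mark the list medians, and fitted values of genes near 0 counts in untreated eyes are not bounds. All tested gliosis genes, interferon-stimulated genes and lens markers lay right of 0 and most homeostatic microglia, rod and cone genes left of it.

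Immediate-early transcription factors, which cells induce within minutes to hours of a stimulus, were higher 2 days after laser treatment. Of 15 AP-1 and EGR family genes and related immediate-early genes, 14 rose and 0 fell, with a median log2 fold change of 1.66 (trend-removed 1.23). Fos, a subunit of AP-1, had 14.9, 15.1 and 20.3 CPM in the untreated pools and 45.7, 64.7 and 49.5 CPM in the control pools. Junb, its partner, had 8.39, 6.74 and 9.64 CPM in the untreated pools and 77.2, 105 and 71.9 CPM in the control pools (log2 fold change 3.35 ± 0.16 SE, trend-removed 2.61). In both genes every control pool lay over 2-fold above every untreated pool. Fosb rose by 2.66 and Fosl1 by 2.83 on the log2 scale. The member that did not pass the test was Egr3. Egr2 had 0, 1 and 0 counts in the untreated and 51, 46 and 88 counts in the control pools and was at least 11.7-fold higher.

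Ligands of gp130 and members of their signalling chain were among the genes that rose. Lif, which encodes leukemia inhibitory factor, had 0.699, 1.12 and 1.03 CPM in the untreated pools and 15.3, 16.7 and 12.2 CPM in the control pools (log2 fold change 3.92 ± 0.20 SE and adjusted p = 3.43e-08 in edgeR). Clcf1, which encodes cardiotrophin-like cytokine factor 1, had 1.66, 1.65 and 2.48 CPM in the untreated pools and 19.2, 24.5 and 18.2 CPM in the control pools (log2 fold change 3.40 ± 0.18 SE). In both genes the lowest control pool was over 7-fold above the highest untreated pool. Il11 was at least 13.6-fold higher. Cntf, Osm and Il6 did not reach the filter on low counts, and Cntf had 3, 3 and 6 counts in the untreated and 2, 7 and 3 counts in the control pools. The list gave 4 of 5 tested ligands higher, with a median of 3.78 (trend-removed 3.06), or 3.40 with genes at the floor set to their bound. On the receptor side, the shared subunit Il6st had 137, 140.3 and 134 CPM in the untreated pools and 214, 268 and 199 CPM in the control pools (log2 fold change 0.73 ± 0.09 SE). Osmr, the oncostatin M receptor, had 15.1, 16.99 and 13.2 CPM in the untreated pools and 51.8, 72.3 and 47.3 CPM in the control pools (log2 fold change 1.92 ± 0.15 SE). Lifr, the LIF receptor subunit, did not pass the test, with a log2 fold change of -0.16 that was -0.21 and called without untreated replicate 1, and that turned to 0.01 under scaling by library size only and to 0.20 with trends removed (adjusted p = 0.00712, edgeR). Stat3 itself, the transcription factor of the pathway (chromosome 11, 100885098 to 100939540 of GRCm38), had 60.02, 58.3 and 57.2 CPM in the untreated pools and 229.9, 299.9 and 229.6 CPM in the control pools (log2 fold change 2.11 ± 0.10 SE and adjusted p = 1.65e-08, edgeR). Of 10 receptors, JAK kinases and STAT factors of the pathway 6 rose and 2 fell. The genes that fell were the kinases Jak1 and Jak2, named after their values were seen, with log2 fold changes of -0.34 and -0.47, and Jak2 did not keep its call with trends removed (-0.18).

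All 9 STAT3 target and feedback genes rose, with a median log2 fold change of 3.35 (trend-removed 2.61, with 8 called). Socs3, the feedback inhibitor of gp130 signalling (chromosome 11, 117966079 to 117970047), had 2.88, 3.07 and 2.69 CPM in the untreated pools and 55.3, 92.9 and 59.8 CPM in the control pools, a 24.02-fold difference (log2 fold change 4.59 ± 0.22 SE and adjusted p = 2.07e-08 in edgeR). Bcl3, an atypical IκB protein, had 0.262, 0.374 and 0.138 CPM in the untreated pools and 22.4, 38.7 and 24.9 CPM in the control pools (log2 fold change 6.77 ± 0.35 SE, trend-removed 6.04), which followed 3 lens crystallins as the largest fitted rise among the genes above the floor that were named by rule. Cebpd, a C/EBP transcription factor, had 5.24, 4.34 and 5.51 CPM in the untreated pools and 70.03, 113 and 80.6 CPM in the control pools (log2 fold change 4.12 ± 0.19 SE). Control replicate 2 was highest of all pools in Socs3, Bcl3, Cebpd, Stat3, Osmr and Junb, and the lowest control pool was still over 3-fold above the highest untreated pool in Socs3, Bcl3, Cebpd, Stat3 and Junb. The 250 bases before the start of Socs3 are shown because they hold the palindrome that STAT dimers are known to bind, TTCNNNGAA, given in capitals. The window lies on the minus strand of GRCm38.p6 as chr11:117969367-117969616, from RefSeq, written 5′ to 3′ towards the gene. The start is that of RefSeq, and the span of the gene given above, from Gencode, begins further upstream and includes the window.

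Socs3: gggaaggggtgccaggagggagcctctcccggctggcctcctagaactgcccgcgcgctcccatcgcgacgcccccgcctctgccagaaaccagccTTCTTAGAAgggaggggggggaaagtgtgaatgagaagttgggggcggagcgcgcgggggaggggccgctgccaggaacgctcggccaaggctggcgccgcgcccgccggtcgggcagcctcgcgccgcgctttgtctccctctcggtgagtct

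This palindrome, searched on both strands, was found 1 time in the window of Socs3, 154 bases before the start, and in 7.02% of all 32851 promoters in the table. The windows of Bcl3, Lcn2, Serpina3n, Timp1, Stat3 and Osmr did not hold these letters, which says nothing of binding elsewhere.

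Genes of reactive gliosis rose without exception among those tested. All 15 rose, with a median log2 fold change of 3.21, and all 15 did so with trends removed, at a median of 3.08. Gfap, the intermediate filament by which gliosis is usually recognised (chromosome 11, 102887336 to 102900912), had 20.3, 20.3 and 19.97 CPM in the untreated pools and 211, 352 and 297 CPM in the control pools, a 14.2-fold difference (log2 fold change 3.83 ± 0.16 SE and adjusted p = 8.07e-09 in edgeR). Vim, the filament that Mueller cells also hold at rest, had 143, 131 and 138 CPM in the untreated pools and 488, 637 and 497 CPM in the control pools (log2 fold change 1.98 ± 0.09 SE). The untreated pools lay close to each other in both genes and far below the control pools. Among secreted factors, Edn2, an endothelin (chromosome 4, 120161206 to 120167360), had 1.92, 2.54 and 2.07 CPM in the untreated pools and 74.9, 119 and 88.8 CPM in the control pools (log2 fold change 5.42 ± 0.20 SE). Lcn2, an iron-siderophore carrier, had 3.23, 4.57 and 4.20 CPM in the untreated pools and 75.3, 106 and 151 CPM in the control pools (log2 fold change 4.78 ± 0.26 SE). Serpina3n, a serine protease inhibitor, had 15.9, 12.9 and 11.1 CPM in the untreated pools and 317, 306 and 218 CPM in the control pools (log2 fold change 4.41 ± 0.15 SE). For each of these the control pools lay over 10-fold above the untreated pools. Which cells made these factors cannot be told from bulk RNA. Timp1, an inhibitor of metalloproteinases, had 0, 3 and 3 counts in the untreated pools against 399, 529 and 702 counts in the control pools, and was at least 104-fold higher.

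**Figure D3:**
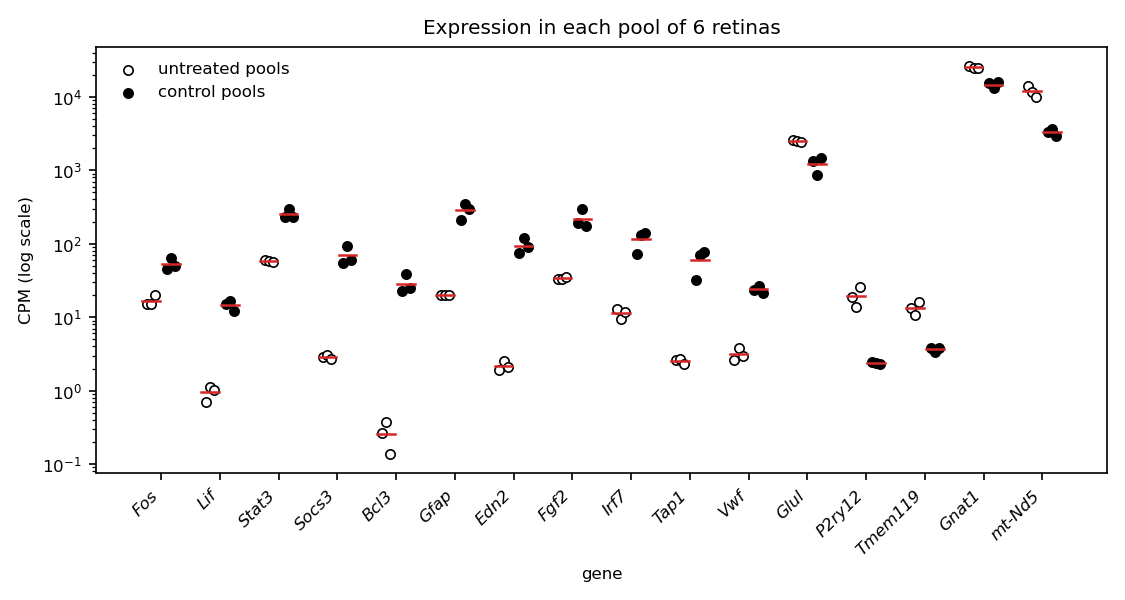
CPM per pool (y axis, log scale) of 16 genes in untreated (open circles) and control laser-treated pools (filled circles), with horizontal bars at the group means. The groups do not overlap for any of the genes shown, as for 69.8% of all genes tested. P2ry12, Tmem119, Glul, Gnat1 and mt-Nd5 are lower in control pools and the others higher.

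Genes of Mueller cell homeostasis moved in both directions. Of 14 tested, 5 rose and 6 fell (median -0.06). Glul, glutamine synthetase, had 2575, 2505 and 2415 CPM in the untreated pools and 1319, 864 and 1476 CPM in the control pools (log2 fold change -1.03 ± 0.14 SE, trend-removed -1.05). The control pools spread from 864 to 1476 CPM, and all lay below every untreated pool. Crym, a thyroid hormone-binding protein, had 28.1, 29.2 and 32.9 CPM in the untreated pools and 247, 420.1 and 333 CPM in the control pools (log2 fold change 3.47 ± 0.16 SE). Slc14a1, a urea transporter, rose by 1.39 and Clu, a secreted chaperone, by 0.91 on the log2 scale. The other genes that rose were Kcnj10 and Prdx6, named after their values were seen, and the median turned to 0.12 under scaling by library size only. Slc1a3, the glial glutamate transporter, had a log2 fold change of 0.17 and did not pass the test.

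Trophic factors were split. Fgf2, a survival factor for photoreceptors, had 33.1, 33.5 and 34.9 CPM in the untreated pools and 189, 293 and 172 CPM in the control pools (log2 fold change 2.69 ± 0.16 SE), while Bdnf had 16.2, 17.6 and 14.4 CPM in the untreated pools and 9.59, 11.4 and 8.86 CPM in the control pools and fell by 0.69 on the log2 scale. Igf1 had 44.2, 39.5 and 36.4 CPM in the untreated pools and 19.7, 18.9 and 17.4 CPM in the control pools and fell by 1.10. In both genes every control pool lay below every untreated pool. With trends removed the values of Bdnf and Igf1 were -0.27 and -0.46, and Bdnf no longer passed the test. In all 7 of 12 trophic factors rose and 3 fell, the third being Ptn, pleiotrophin, named after its values were seen. With trends removed 5 of the 12 rose and 2 fell, and the median was 0.15 in place of 0.76. Among factors that govern Mueller cell reprogramming in other species, Notch1 and its target Hes5 rose by 1.05 and 1.63 on the log2 scale (trend-removed 0.67 and 0.89). Of 13 such factors, 7 rose and 2 fell, and with trends removed the numbers were 4 and 5. The factors that fell without that correction were Pax6 and Insm1, named after their values were seen, with log2 fold changes of -0.47 and -0.47 (trend-removed -0.45 and -1.18).

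Interferon-stimulated genes, which are normally switched on by transcription factors downstream of interferon receptors, rose as a whole. All 21 tested genes were over 2-fold higher, with log2 fold changes from 1.39 to 4.47 and a median of 2.58 (trend-removed 2.54, again all called). Irf7, the interferon regulatory factor that amplifies the response, had 13.02, 9.58 and 11.8 CPM in the untreated pools and 71.6, 131 and 140.1 CPM in the control pools (log2 fold change 3.32 ± 0.23 SE and adjusted p = 2.00e-07 in edgeR). Usp18, the ISG15 protease, had 0.961, 1.57 and 1.93 CPM in the untreated pools and 15.8, 33.05 and 35.04 CPM in the control pools (log2 fold change 4.19 ± 0.34 SE). In both genes control replicate 1 was the lowest control pool, yet it was over 3-fold above every untreated pool. Bst2, which tethers virions, had 1.49, 0.973 and 2.96 CPM in the untreated pools and 26.2, 53.6 and 43.7 CPM in the control pools (log2 fold change 4.47 ± 0.32 SE). Without untreated replicate 3 its log2 fold change was 5.06. Rtp4 and Stat2 rose by 3.32 and 1.63 on the log2 scale. The summed CPM of the list were 222, 207 and 219 in the untreated and 758, 1239 and 1272 in the control pools.

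Upstream sequences were searched for the core of the interferon-stimulated response element, GAAANNGAA on either strand. It was found in the 250 bases before the start of 10 of 18 interferon-stimulated genes with an entry in the promoter table (55.6%), against 8.18% of the 27025 genes with one. Such genes are known for this element, so the share describes the list and is not a result of these data. Among genes over 2-fold higher 10.6% held the core, and among antigen presentation genes 1 of 11 (9.09%). The windows of Isg15, Ifit1 and Bst2 are shown because they hold 2 or 3 matches each, in capitals, where overlapping matches run together. They lie at chr4:156200819-156201068 (minus strand), chr19:34640639-34640888 (plus strand) and chr8:71537473-71537722 (minus strand) of GRCm38.p6, from RefSeq, written 5′ to 3′ towards the gene. Isg15 and Ifit1 were chosen after their values were seen.

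Isg15: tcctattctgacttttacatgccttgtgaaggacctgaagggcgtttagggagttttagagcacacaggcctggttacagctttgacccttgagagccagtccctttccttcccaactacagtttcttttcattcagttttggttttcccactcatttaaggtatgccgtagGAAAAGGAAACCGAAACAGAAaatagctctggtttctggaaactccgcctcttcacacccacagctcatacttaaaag

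Ifit1: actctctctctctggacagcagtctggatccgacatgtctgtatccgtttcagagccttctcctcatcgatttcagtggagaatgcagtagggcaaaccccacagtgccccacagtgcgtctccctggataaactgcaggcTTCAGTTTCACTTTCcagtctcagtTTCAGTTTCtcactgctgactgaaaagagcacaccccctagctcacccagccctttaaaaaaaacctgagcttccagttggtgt

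Bst2: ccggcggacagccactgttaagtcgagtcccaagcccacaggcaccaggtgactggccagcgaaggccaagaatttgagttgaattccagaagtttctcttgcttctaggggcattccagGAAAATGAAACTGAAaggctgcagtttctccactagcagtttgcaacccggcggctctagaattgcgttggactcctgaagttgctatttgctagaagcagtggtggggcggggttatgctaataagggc

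Isg15, a ubiquitin-like modifier, had 0.961, 0.973 and 1.51 CPM in the untreated pools and 7.703, 11.3 and 14.5 CPM in the control pools (log2 fold change 3.25 ± 0.28 SE). Ifit1, a sensor of foreign RNA caps, had 4.19, 2.99 and 3.65 CPM in the untreated pools and 19.96, 37.1 and 48.2 CPM in the control pools (log2 fold change 3.29 ± 0.30 SE). Both were lowest in control replicate 1 and highest in control replicate 3, and neither overlapped with the untreated pools. The Irf7 and Tap1 windows held no match.

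Genes of antigen presentation rose as well. Of 16, 15 rose and 0 fell, with a median log2 fold change of 2.33 (trend-removed 1.96, 13 called). The member that did not pass the test was B2m. Nlrc5, the transactivator of MHC class I genes (chromosome 8, 94434356 to 94527272), had 0.0874, 0.749 and 0.344 CPM in the untreated pools and 15.9, 33.7 and 31.02 CPM in the control pools (log2 fold change 6.02 ± 0.43 SE). Tap1, a subunit of the peptide transporter, had 2.62, 2.69 and 2.27 CPM in the untreated pools and 31.6, 69.97 and 77.3 CPM in the control pools (log2 fold change 4.56 ± 0.34 SE). Psmb9, an immunoproteasome subunit, had 0.699, 0.449 and 0.689 CPM in the untreated pools and 5.65, 15.9 and 15.2 CPM in the control pools (log2 fold change 4.31 ± 0.46 SE). The class I heavy chains H2-K1 and H2-D1 rose by 2.28 and 2.95, and the class II chain H2-Aa by 3.14 on the log2 scale. Without untreated replicate 2 the log2 fold change of Nlrc5 was 6.81. In Nlrc5, Tap1 and Psmb9 control replicate 1 was again the lowest control pool. The class I genes are near-identical paralogs, so reads may have been split between them, and the same holds for the Ifit, Serpina3, beta-globin and gamma-crystallin genes.

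Most chemokine ligands that were tested rose. Of 14, 10 rose and 1 fell, with a median of 2.31 on the log2 scale, or 2.10 with genes at the floor set to their bound. The median was 2.92, 2.86 and 3.01 without control replicate 1, 2 or 3, and 2.06, 2.71 and 2.26 without untreated replicate 1, 2 or 3. In libraries thinned to the smallest total 11 of these ligands reached the filter, with a median of 0.74, against 0.70 for the same ligands in the full libraries. Ccl2, which attracts monocytes, had 1, 0 and 1 counts in the untreated pools and 7.75, 7.25 and 2.93 CPM in the control pools, and was at least 25.9-fold higher. Ccl7 had 53, 56 and 26 and Cxcl2 112, 37 and 19 counts in the control pools against 0 counts in every untreated pool, and they were at least 8.88-fold and 10.8-fold higher, with a bound of 5.64-fold for Cxcl2 without control replicate 1. Control replicate 3 was lowest of the control pools in Ccl2, Ccl7 and Cxcl2. The member that fell was Cxcl14, with 93.5, 92.9 and 83.8 CPM in the untreated pools and 46.8, 47.5 and 49.7 CPM in the control pools (log2 fold change -0.91 ± 0.06 SE), which was chosen after its values were seen.

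Among genes of the interleukin-1 and TNF families, 10 of 16 rose and 1 fell (median 1.07). The gene that fell was Tnfaip3, the NF-κB inhibitor A20, named after its values were seen. Il1b was at least 10.4-fold higher (at least 6.35-fold without control replicate 2), with 1.23, 4.27 and 1.71 CPM in the control pools, so that replicate 2 was over 2-fold above the others. Tnfrsf12a, the receptor of TWEAK, had 3.15, 1.95 and 4.06 CPM in the untreated pools and 26.5, 26.4 and 21.6 CPM in the control pools (log2 fold change 3.01 ± 0.18 SE, trend-removed 2.42). Tnf was below the filter on low counts, with 3, 0 and 0 counts in the untreated and 6, 6 and 8 counts in the control pools. Of 17 complement genes, 9 rose and 1 fell (median 1.37). C4b had 2.88, 2.99 and 4.75 CPM in the untreated pools and 44.7, 38.6 and 40.7 CPM in the control pools (log2 fold change 3.52 ± 0.14 SE). C3, the hub of the cascade, had 3.23, 2.84 and 3.099 CPM in the untreated pools and 20.4, 18.6 and 19.6 CPM in the control pools (log2 fold change 2.68 ± 0.12 SE). Serping1, the C1 inhibitor, rose by 2.32 on the log2 scale. Each of these genes was over 3-fold higher in every control pool than in any untreated pool. C1qa and C1qb, made in the retina by microglia, did not pass the test, with log2 fold changes of 0.10 and -0.32, and with trends removed both were called lower, at -0.56 and -0.87. Both moved with single untreated pools: C1qa was 0.37 and called higher without replicate 3 but -0.02 and -0.05 without replicates 1 and 2, and C1qb was -0.48 and called lower without replicate 2.

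Markers of homeostatic microglia were lower. Of 12 tested, 9 fell and 0 rose, with a median log2 fold change of -1.43 (trend-removed -1.21, 8 called). P2ry12, the purinergic receptor of surveying microglia (chromosome 3, 59216272 to 59262871), had 19.1, 13.7 and 25.5 CPM in the untreated pools and 2.45, 2.38 and 2.28 CPM in the control pools (log2 fold change -3.04 ± 0.21 SE). Tmem119, another marker of the resting state, had 13.4, 10.8 and 16.2 CPM in the untreated pools and 3.76, 3.38 and 3.78 CPM in the control pools (log2 fold change -1.89 ± 0.15 SE, trend-removed -2.49). Siglech, Gpr34 and Slc2a5 fell, with log2 fold changes of -1.96, -2.13 and -2.09 (trend-removed -1.79, -1.54 and -2.34). The fall did not extend to every marker of the lineage: Cx3cr1, the fractalkine receptor, had 12.7, 8.83 and 16.3 CPM in the untreated pools and 11.1, 11.2 and 9.72 CPM in the control pools and did not pass the test. Cx3cr1 was chosen after its values were seen.

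Genes of activated phagocytes rose over the same interval. Of 15, 13 rose and 0 fell (median 1.37). Lgals3, galectin-3, had 2.88, 1.35 and 1.65 CPM in the untreated pools and 40.5, 60.1 and 46.4 CPM in the control pools (log2 fold change 4.67 ± 0.21 SE). Spp1, osteopontin, had 31.1, 28.6 and 29.3 CPM in the untreated pools and 71.1, 99.8 and 92.0 CPM in the control pools (log2 fold change 1.56 ± 0.11 SE). Axl, a receptor for apoptotic cells, and the lysosomal tetraspanin Cd63 rose by 2.21 and 2.64 on the log2 scale. Several of these genes are also expressed by macroglia or ganglion cells, so the list does not mark phagocytes alone. Markers of blood-derived monocytes and macrophages had 8.12, 7.56 and 9.64 CPM in sum in the untreated pools and 45.3, 63.2 and 50.7 CPM in the control pools. Of 11 tested, 9 rose, with a median of 2.85, or 2.12 with bounds. Ccr2, the receptor of CCL2, had 0, 1 and 0 counts in the untreated and 28, 59 and 54 counts in the control pools, and was at least 9.16-fold higher. Arg1, arginase 1, had 0.437, 0.449 and 0.551 CPM in the untreated pools and 6.92, 9.18 and 11.8 CPM in the control pools (log2 fold change 4.25 ± 0.29 SE).

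Neutrophil markers reached low levels. S100a9 was at least 25.3-fold higher, with 1, 0 and 0 counts in the untreated and 194, 136 and 57 counts in the control pools, and S100a8 at least 18.6-fold. The receptor gene Csf3r had 1.05, 0.449 and 0.6197 CPM in the untreated pools and 4.902, 9.03 and 2.93 CPM in the control pools (log2 fold change 3.00 ± 0.46 SE). All 4 tested members rose (median 6.58, or 3.61 with bounds, and 7.44 without untreated replicate 3), but 8 of the 12 markers did not reach the filter on low counts, including Ly6g, Ngp and Elane with at most 1 count in any pool. No lymphocyte marker passed the filter, with summed CPM of 1.49, 1.497 and 0.895 in the untreated and 1.62, 1.84 and 1.22 in the control pools. Of 4 tested platelet markers 4 rose, and Pf4, platelet factor 4, had 0 counts in each untreated pool and was at least 5.96-fold higher. Of 5 erythroid markers the beta-globins Hbb-bs and Hbb-bt rose, and Hbb-bs had 6.203, 6.89 and 6.54 CPM in the untreated pools and 17.4, 18.3 and 16.6 CPM in the control pools. RNA of blood in the vessels of the pools was not measured separately, and its part in these values was not tested.

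**Figure D4:**
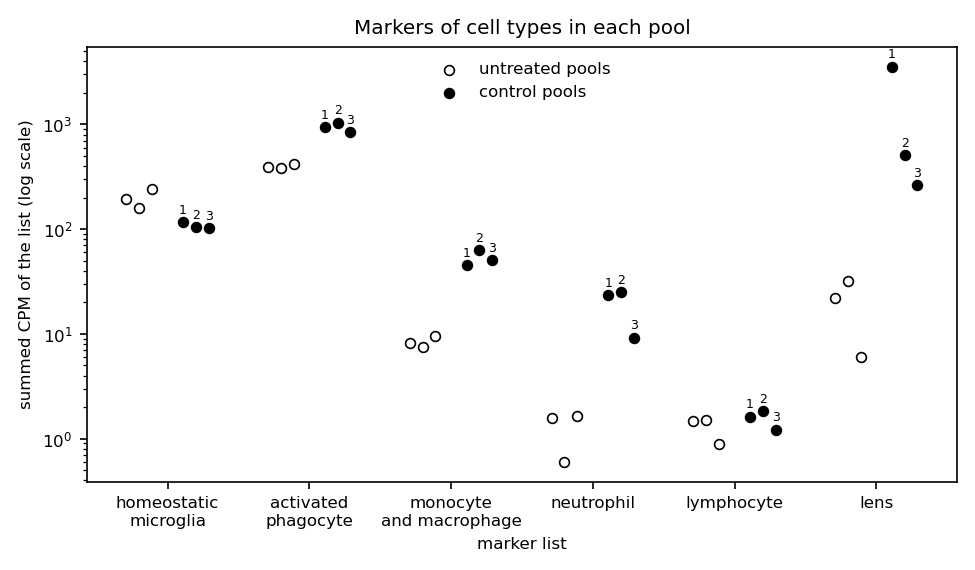
Summed CPM per pool (y axis, log scale) of the markers of 6 cell types in untreated (open circles) and control laser-treated pools (filled circles, with the replicate number). Lens markers spread from 262 to 3554 CPM among control pools, with replicate 1 highest; neutrophil markers were lowest in control replicate 3 and lymphocyte markers overlapped between the groups.

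Most genes of matrix remodelling rose. Of 20 tested matrix remodelling genes, 18 rose and 1 fell, with a median log2 fold change of 1.34 (trend-removed 1.34). Mmp3, stromelysin 1, had 0 counts in every untreated pool and 55, 50 and 43 counts in the control pools, at least 9.57-fold higher. Plaur, the urokinase receptor, was at least 13.3-fold higher, and its ligand Plau had 0.437, 0.524 and 0.207 CPM in the untreated pools and 4.03, 3.47 and 1.504 CPM in the control pools (log2 fold change 2.94 ± 0.47 SE). The member that fell was Timp3, chosen after its values were seen, at a log2 fold change of -0.27, and it did not pass the test with trends removed or without control replicate 3 (-0.20) or untreated replicate 1 (-0.24) or 2 (-0.27).

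Endothelial markers were higher. Of 16, 11 rose and 0 fell, with a median of 0.87 (trend-removed 0.73, 11 called). Vwf, von Willebrand factor, had 2.62, 3.82 and 2.96 CPM in the untreated pools and 23.6, 26.6 and 21.6 CPM in the control pools (log2 fold change 2.92 ± 0.14 SE). Cdh5, the adhesion protein of endothelial junctions, had 3.06, 3.74 and 3.79 CPM in the untreated pools and 9.804, 9.63 and 8.903 CPM in the control pools (log2 fold change 1.41 ± 0.14 SE). Cldn5, a tight junction protein, had 3.32, 4.12 and 5.37 CPM in the untreated pools and 12.7, 19.4 and 14.03 CPM in the control pools (log2 fold change 1.82 ± 0.19 SE, trend-removed 1.14). Each of the control pools was above all untreated pools in these 3 genes. Pecam1, the common endothelial marker, rose by 0.55 on the log2 scale. The leukocyte adhesion genes Icam1 and Vcam1 rose by 1.98 and 1.21, and Selp, P-selectin, had 0 counts in each untreated pool and was at least 5.76-fold higher. Selplg, its ligand, fell by 1.19, and of 6 adhesion genes 4 rose and 2 fell, the others being Cd34 (higher) and Jam2 (lower), named after their values were seen. Among 11 pericyte and smooth muscle markers 5 rose and 0 fell, and Pdgfrb had 12.8, 13.6 and 13.4 CPM in the untreated pools and 20.9, 20.9 and 19.5 CPM in the control pools (log2 fold change 0.62 ± 0.09 SE).

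Stress pathways changed in part. Of 13 p53 targets, 7 rose and 3 fell. The cell cycle inhibitor Cdkn1a had 3.58, 5.39 and 4.27 CPM in the untreated pools and 18.5, 13.9 and 12.97 CPM in the control pools (log2 fold change 1.77 ± 0.17 SE), while Mdm2, Ccng1 and Trp53inp1 fell, with a log2 fold change of -0.42 for Mdm2, and with trends removed Trp53inp1 was at -0.02 and not called. Among effectors of cell death, 7 of 14 rose and 1 fell. Ccng1 and Trp53inp1 were named after their values were seen. Mlkl, the executor of necroptosis, was at least 3.99-fold higher, the pyroptosis effector Gsdmd had 0.437, 0.449 and 0.551 CPM in the untreated pools and 1.71, 2.08 and 1.54 CPM in the control pools, and the death receptor Fas had 0.612, 0.599 and 1.102 CPM in the untreated pools and 2.76, 3.77 and 3.13 CPM in the control pools. Tnfrsf1a, the TNF receptor, had 7.86, 8.46 and 7.78 CPM in the untreated pools and 38.2, 55.8 and 41.02 CPM in the control pools (log2 fold change 2.48 ± 0.14 SE). These levels were low for Mlkl, Gsdmd and Fas, under 4 CPM in every control pool.

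In the unfolded protein response, 8 of 16 genes rose and Dnajb9 fell, and with trends removed 4 rose and 4 fell. Hspa5, the chaperone BiP, had 322, 321 and 309 CPM in the untreated pools and 419.6, 432 and 405 CPM in the control pools (log2 fold change 0.40 ± 0.05 SE). Ddit3, the factor CHOP, rose by 0.28 on the log2 scale and Atf5, a stress-regulated transcription factor, by 2.04 (trend-removed 1.33), while Dnajb9, a co-chaperone, fell by 0.98. Among heat shock proteins 7 of 14 rose, the constitutive chaperones Hspa8 and Hsp90aa1 fell, named after their values were seen, and Bag3 had 7.78, 7.86 and 6.54 CPM in the untreated pools and 19.4, 23.6 and 22.04 CPM in the control pools (log2 fold change 1.56 ± 0.11 SE). Cryab, which is also a crystallin of the lens, had 44.99, 40.2 and 38.2 CPM in the untreated pools and 538, 169 and 147 CPM in the control pools, and control replicate 1 was over 3-fold above the other control pools, so that its log2 fold change of 2.79 was 1.94 without that pool. Hmox1, heme oxygenase 1 and the first of the NRF2 targets, had 4.89, 4.71 and 6.33 CPM in the untreated pools and 109, 64.1 and 22.5 CPM in the control pools (log2 fold change 3.60 ± 0.48 SE). Control replicate 1 was highest and replicate 3 lowest in Hmox1, with a log2 fold change of 3.00 without replicate 1, and 9 of 15 NRF2 targets rose, while Gclc, Me1 and G6pdx, named after their values were seen, fell. Me1 lost its call with trends removed, at -0.13, and Me1 and G6pdx lost theirs under scaling by library size only, at -0.17 and -0.11. Of 8 metallothionein and zinc transporter genes 4 rose and 0 fell, with Mt1 and Mt2 at log2 fold changes of 1.96 and 2.51.

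HIF targets were split. Of 20, 10 rose and 4 fell, and with trends removed the numbers were 6 and 1 (medians 0.33 and 0.13). The genes that fell were Bnip3, Pdk1, P4ha1 and Kdm3a, named after their values were seen, and with trends removed none of these 4 was called. Pdk1 lost its call without control replicate 2, untreated replicate 1 or untreated replicate 2 (-0.21, -0.28 and -0.32), and P4ha1 without these or control replicate 3 (-0.18, -0.20, -0.26 and -0.25). Adm, adrenomedullin, had 0.612, 0.674 and 1.24 CPM in the untreated pools and 3.54, 2.23 and 3.98 CPM in the control pools (log2 fold change 1.92 ± 0.32 SE). Car9, a carbonic anhydrase, had 2, 1 and 0 counts in the untreated and 15, 15 and 14 counts in the control pools and was at least 2.84-fold higher. Of 16 clock genes 4 rose and 6 fell, all by less than 2-fold, with a median that turned sign under scaling by library size only. Cholesterol synthesis genes gave 5 higher and 7 lower of 21, with 0 higher and 4 lower when trends were removed, and their median also turned sign under scaling by library size only.

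Of 15 axon injury genes 9 rose and 0 fell, and with trends removed 6 rose and 1 fell. Sprr1a, a protein of regrowing axons, had 0 counts in each untreated pool and 77, 21 and 28 counts in the control pools, at least 8.01-fold higher, and at least 4.72-fold without control replicate 1. Atf3, a transcription factor of injured neurons, had 11.6, 10.8 and 11.2 CPM in the untreated pools and 45.6, 63.2 and 41.9 CPM in the control pools (log2 fold change 2.16 ± 0.14 SE), and Sox11 did not pass the test, with 2.97, 2.69 and 2.75 CPM in the untreated pools and 3.501, 3.23 and 3.17 CPM in the control pools. Mki67 and Top2a, which mark dividing cells, were near 0 in untreated eyes: Mki67 had 0, 0 and 1 counts in the untreated and 83, 56 and 59 counts in the control pools, at least 12.7-fold higher, and Top2a was at least 14.1-fold higher. Of 17 cell cycle genes 9 rose and Ccna2, named after its values were seen, fell.

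Most rod genes were lower, by less than 2-fold in the median. Of 23 rod genes, 15 fell and 2 rose, with a median log2 fold change of -0.39. With trends removed 18 fell and 0 rose, at a median of -0.46. Gnat1, the rod transducin alpha subunit, had 25900, 24830 and 24320 CPM in the untreated pools and 15150, 13190 and 15660 CPM in the control pools (log2 fold change -0.77 ± 0.08 SE and adjusted p = 5.67e-06, edgeR). Control replicate 2 was the lowest pool, and the groups did not overlap. Gngt1, the transducin gamma subunit, Rp1, an axoneme protein of the outer segment, and Guca1a, the activator of guanylate cyclase, also fell, with log2 fold changes of -1.07, -0.90 and -0.78 (trend-removed -0.42, -0.36 and -1.26). Rbp3, the retinoid-binding protein of the space around photoreceptors, belonged to no list and had the largest gain in mean CPM of the called genes, with 5383, 5299 and 5786 CPM in the untreated pools and 6243, 6808 and 6437 CPM in the control pools (log2 fold change 0.24 ± 0.07 SE), and with trends removed it was at -0.13 and not called. Its call was also lost without any 1 pool, at 0.21 to 0.27, and under RLE scaling (0.23). The rod genes that rose were Rom1, a disc protein, and Guca1b, which was chosen after its values were seen; their values were 0.57 and 0.28, and with trends removed 0.03 and -0.19, and neither kept its call. Guca1b also lost it without any single pool but control replicate 2, at 0.19 to 0.31.

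Cone genes were lower too. Of 12, 9 fell and 2 rose, with a median of -0.59 (trend-removed -0.51, 10 lower). Opn1sw, the short-wavelength opsin, had 515, 522 and 561 CPM in the untreated pools and 402, 309.8 and 425 CPM in the control pools (log2 fold change -0.49 ± 0.10 SE). Opn1mw, the middle-wavelength opsin, had 206, 181 and 196 CPM in the untreated pools and 119, 112 and 125 CPM in the control pools (log2 fold change -0.71 ± 0.06 SE). The groups did not overlap in either opsin. Cngb3, a subunit of the cone channel, and Gucy2f, a guanylate cyclase not specific to cones, fell with log2 fold changes of -1.18 and -1.10. Gnb3, the transducin beta subunit of cones and of ON bipolar cells, rose together with Pde6h, which was named after its values were seen, and Gnb3 had 328, 318 and 329.6 CPM in the untreated pools and 855, 1081 and 873 CPM in the control pools (log2 fold change 1.53 ± 0.08 SE, trend-removed 1.01).

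Neurons of the inner retina showed lower levels of most markers that passed the test. In bipolar cells 8 of 18 genes fell and 3 rose, in amacrine cells 9 of 17 fell and 2 rose, in horizontal cells 4 of 8 fell and 0 rose, and in ganglion cells 10 of 17 fell and 2 rose. The genes that rose were Nyx, Gng13 and Pcp2 in bipolar cells, Slc32a1 and Slc18a3 in amacrine cells and Gap43 and Tubb3 in ganglion cells, of which Nyx, Pcp2, Slc32a1 and Gap43 were named after their values were seen. With trends removed only Gng13 and Tubb3 of these kept their call, and Slc32a1 turned to -0.01. Without control replicate 2 or 3 or any untreated pool Gap43 lost its call (0.20 to 0.32), and Pcp2 did so without control replicate 3 or any untreated pool (0.21 to 0.28). The medians in that order were -0.16, -0.29, -0.61 and -0.37, and trend-removed -0.28, -0.33, -0.49 and -0.55. Under scaling by library size only they were 0.02, -0.12, -0.43 and -0.20, so that the bipolar median turned sign. Prkca, the kinase that marks rod bipolar cells, had 423, 437 and 408 CPM in the untreated pools and 263, 236 and 262 CPM in the control pools (log2 fold change -0.74 ± 0.06 SE). Calb1, calbindin of horizontal cells, had 120.5, 107 and 109 CPM in the untreated pools and 57.7, 59.7 and 65.6 CPM in the control pools (log2 fold change -0.88 ± 0.07 SE, trend-removed -0.21). Rbpms, the general ganglion cell marker, had 48.1, 45.96 and 46.3 CPM in the untreated pools and 33.1, 29.5 and 32.9 CPM in the control pools (log2 fold change -0.55 ± 0.07 SE). The groups did not overlap in any of these genes. Gad1 and Gad2, which make GABA in amacrine cells, fell with log2 fold changes of -0.29 and -0.75, and the ganglion cell genes Pou4f1 and Slc17a6 with -0.44 and -0.70. Calb1 and Gad1 did not keep their call with trends removed. Tubb3 rose by 0.74, trend-removed 0.18.

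Synaptic genes were mostly lower. Of 19 genes of synaptic vesicles and ribbons, 10 fell and Syp and Stx1a rose, the latter named after its values were seen (trend-removed 14 lower and 1 higher). The median of the list was -0.22 (trend-removed -0.36), and -0.05 under scaling by library size only. Snap25, a SNARE protein, had 2801, 2640 and 2464 CPM in the untreated pools and 1408, 1378 and 1421 CPM in the control pools (log2 fold change -0.91 ± 0.07 SE, trend-removed -0.35). Pclo and Rims2, proteins of the active zone, fell with log2 fold changes of -0.85 and -0.78. Syp, synaptophysin, had 687, 703 and 749.9 CPM in the untreated pools and 835, 856 and 900.5 CPM in the control pools (log2 fold change 0.28 ± 0.06 SE). Syp lost its call without untreated replicate 2 (0.25), and Stx1a without control replicate 1 or 3 or untreated replicate 1 or 2 (0.38, 0.42, 0.40 and 0.35), and with trends removed Stx1a turned to -0.15.

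**Figure D5:**
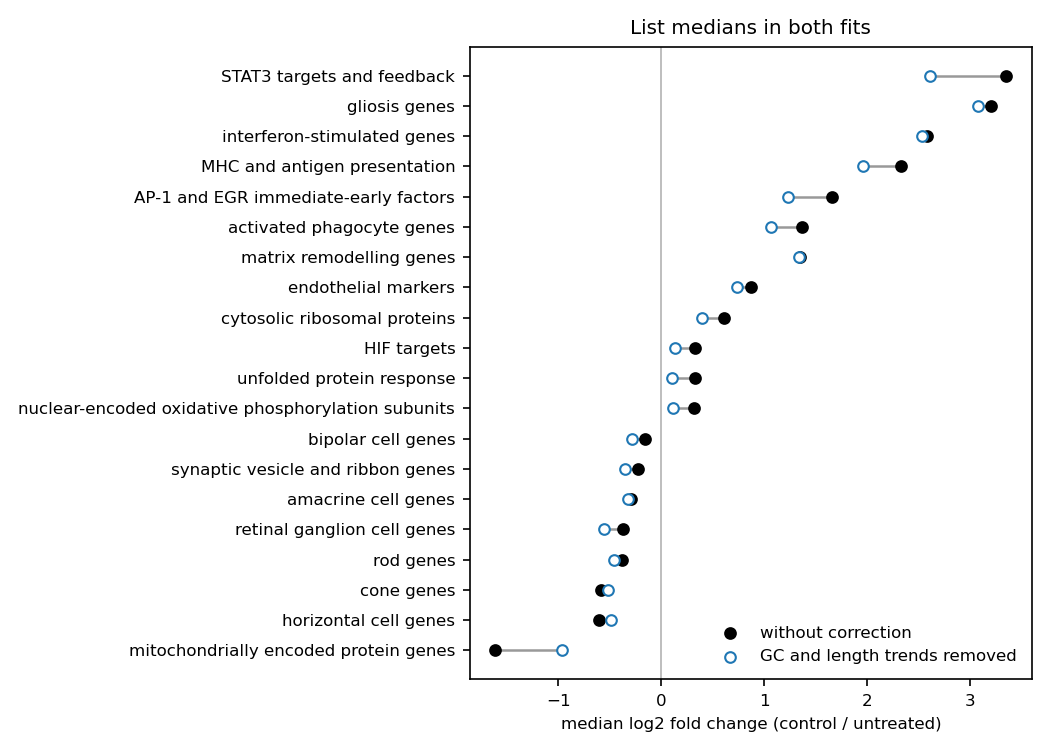
Median log2 fold change of the tested members of 20 gene lists, control against untreated (x axis), in the fit without correction (filled circles) and with GC and length trends removed (open circles), joined by a line. The rod, cone, inner neuron and synaptic lists were below 0 and the injury, immune, matrix and endothelial lists above 0 in both fits. Under scaling by library size only the bipolar median was above 0, and the synaptic and amacrine medians were -0.05 and -0.12.

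Genes of the mitochondrial genome were lower and, with Gnat1, were among the genes with the largest losses in CPM. All 8 tested protein genes of the mitochondrial genome fell, with a median of -1.61, and with trends removed 7 fell with a median of -0.97. mt-Nd5, a subunit of complex I, had 13810, 11620 and 9995 CPM in the untreated pools and 3354, 3606 and 2954 CPM in the control pools (log2 fold change -1.84 ± 0.11 SE, trend-removed -1.24). mt-Co1, a subunit of complex IV, had 21640, 17430 and 15960 CPM in the untreated pools and 6093, 6970 and 5657 CPM in the control pools (log2 fold change -1.56 ± 0.11 SE, trend-removed -1.14). The median GC content of these genes, 36.4%, lies in the tenth of genes with the lowest GC content. Of 17 tested mitochondrial RNA genes 7 fell and mt-Tp rose, with a median of -0.60 (trend-removed -0.22) that turned to 0.01 with the GC trend alone removed. The gene mt-Tp, named after its values were seen, lost its call with the replicate block and without control replicate 2 or 3 or any untreated pool (0.64 to 0.71). The transfer RNA genes mt-Te and mt-Tm fell with log2 fold changes of -3.00 and -2.43. The libraries were selected for poly-A RNA. Whether counts on mitochondrial RNA genes came from the mature RNAs or from longer transcripts was not tested. Nuclear-encoded subunits of oxidative phosphorylation did not share this direction: 44 of 80 rose and 11 fell, with a median of 0.32 (trend-removed 0.12). Cytosolic ribosomal proteins gave 46 higher and 8 lower of 78 (median 0.61, trend-removed 0.39), and as they have many processed pseudogenes their counts are uncertain.

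Lens crystallins, the structural proteins of the lens, had the 3 largest fitted rises among the genes above the floor that were named by rule. All 13 tested lens markers were higher, with a median log2 fold change of 5.97, and with trends removed 8 were called, with a median of 5.77. Cryaa had 10.1, 13.6 and 1.31 CPM in the untreated pools and 1547, 162 and 110.3 CPM in the control pools (log2 fold change 6.22 ± 1.02 SE). Crybb2 had 3.06, 5.39 and 0.6197 CPM in the untreated pools and 881, 134 and 66.4 CPM in the control pools (log2 fold change 6.92 ± 1.03 SE, trend-removed 6.31), and Crygc had 0.262, 0.599 and 0 CPM in the untreated pools and 88.01, 32.6 and 7.76 CPM in the control pools. Crygd was at least 159.8-fold higher, and at least 77.3-fold without control replicate 1. Control replicate 1 was far above the other control pools in Cryaa, Crybb2 and Crygc, and the untreated pools also differed, with replicate 3 lowest. The summed lens markers were 22.2, 32.2 and 5.99 CPM in the untreated and 3554, 506 and 262 CPM in the control pools. The fibre-specific Mip, at 0 counts in every untreated pool, had 298, 21 and 16 counts in the control pools, and its call was lost without any 1 untreated pool (adjusted p = 0.0279 to 0.0333, edgeR) and with trends removed (adjusted p = 0.0219). Without control replicate 1 the log2 fold changes of Cryaa, Crybb2 and Crygc were 4.06, 5.07 and 6.12, all still called, and the median of the list was 4.32 in place of 5.97. How much of these values came from lens tissue in the pools was not tested.

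Pigment epithelium and melanocyte markers were present in all pools, with sums of 682, 628 and 636 CPM in the untreated and 616, 559.5 and 592 CPM in the control pools. Of 12, Rpe65, Lrat and Rgr fell and Rdh5 rose. Rpe65, the isomerase of the visual cycle, had 59.1, 55.4 and 58.9 CPM in the untreated pools and 37.9, 33.2 and 46.3 CPM in the control pools (log2 fold change -0.56 ± 0.10 SE) and Lrat, its partner, fell by 0.71 on the log2 scale, and with trends removed neither Rpe65 nor Rdh5 was called. Oligodendrocyte markers, which in mouse mark the myelinated optic nerve, gave 1 higher and 0 lower of 3 tested, the one that rose being Cnp (17.3, 17.4 and 17.5 CPM in the untreated pools and 34.5, 38.5 and 36.4 CPM in the control pools).

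Other genes with large falls among those named by rule belonged to no list. Kpna2, an importin, had 66.7, 49.3 and 41.8 CPM in the untreated pools and 13.3, 9.38 and 13.7 CPM in the control pools (log2 fold change -2.10 ± 0.17 SE). Upk1b, a uroplakin, had 2.88, 2.47 and 2.75 CPM in the untreated pools and 0.306, 0.447 and 0.528 CPM in the control pools (log2 fold change -2.63 ± 0.27 SE). Rgs13, a regulator of G protein signalling, had 3.23, 2.69 and 3.37 CPM in the untreated pools and 0.656, 0.596 and 0.691 CPM in the control pools (log2 fold change -2.24 ± 0.23 SE, trend-removed -1.49). Lypd2 and Naa11, an acetyltransferase, fell with log2 fold changes of -2.77 and -2.29, from at most 2.01 CPM in any untreated pool, and Naa11 was -3.16 without control replicate 3. All of these kept their call with trends removed.

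Genes with a large spread among the control pools were few. Of 11346 genes over 5 CPM in both groups, the median SD of log2 CPM was 0.072 in control and 0.085 in untreated pools, and 31 and 9 genes exceeded 0.5. Among the 5 most variable genes in the control pools were Cryba1, Cryaa, Lgsn and Crygs, which are crystallins or other genes known from the lens. Without any 1 untreated pool Lgsn lost its call, and Cryba1 did so without untreated replicate 3 (5.15 in place of 5.72).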

How the data were processed

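RNA of 9 pools of 6 mouse retinas was sequenced by the authors as stranded poly-A libraries with single reads, aligned with STAR 2.5.2b to GRCm38 and counted per gene with featureCounts of Subread 1.5.1 and Gencode vM11. The deposited values are raw counts per gene, and whether strand was used and how reads with several alignments were treated is not given in the sources used here. The 3 control laser-treated and 3 untreated pools were taken by their labels. Each pool holds retinas of 6 mice, the labels do not say which mice, and p-values measure the spread between pools.

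Genes were filtered with filterByExpr, which left 16066 of 48679 gene names, and tested with the quasi-likelihood test of edgeR 4.0.16 (R 4.3.3, TMM factors, Benjamini-Hochberg adjusted p under 0.01), two-sided. CPM are counts per 1000000 of the TMM-scaled library, with no pseudocount. SE was calculated back from the F statistic of the test and was not estimated directly. DESeq2 1.42.0 and other scalings were alternatives. Trends were removed with offsets from robust regression of each pool's log2 deviations from the gene means on splines of GC content (6 degrees of freedom) and transcript length (4), taken from a later Gencode release that matched 97.0% of the genes tested by name. The fit was tested on simulated data before use. Gene names and coordinates were matched by symbol, and promoters came from RefSeq.

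The comparison, the gene lists and the rule for named genes were chosen with earlier results of these data known, so no list or member is independent support. Named by rule were the 12 largest rises and 12 largest falls above the floor without overlap, the 6 largest lower bounds, the 6 largest gains and losses of mean CPM, the first 2 and up to 4 most changed called members of each list, and the 5 genes most variable among control pools, of which some are not reported here. Total counts of 12377572 to 23419497 set the precision. Bounds set the untreated pools to 3 counts each and take the control pools as measured. They are not confidence limits and cover no spread between pools. Pools of the same replicate number did not deviate together (correlations 0.07, -0.07 and 0.19), so numbers were not taken as pairs.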

Additional observations from a re-analysis of the deposited data

How the results depend on the processing

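Removal of the GC content and length trends gave 2800 genes higher and 839 over 2-fold higher, and 214 over 2-fold lower. Removal of the GC trend alone, chosen after seeing the data, gave 2783, 864 and 194. A fit of all 9 pools called 3403 genes higher and 2997 lower of 17112. DESeq2 called 3973 higher and 3794 lower of 28543 genes with a count. In these fits the genes called were a minority. Scaling by library size only gave 2484 genes lower and 209 over 2-fold lower, and 70.4% of calls were then higher, against 51.9% in the fit as reported and 46.4% to 47.5% with trends removed. The cause was not tested. Leaving out 1 pool gave 3491 to 4093 genes higher and 3424 to 4022 lower, 1190 to 1403 over 2-fold higher and 330 to 448 over 2-fold lower, with 33 to 35 of 48 lists above 0 in the median and 208 to 216 of 221 called named genes still called in their direction. With the replicate number as a block, 4368 genes were higher, 4041 lower, 1340 over 2-fold higher and 380 over 2-fold lower, and the samples share only a number.

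Among 187 genes of the text, removal of both trends changed 29 of 186 calls or directions (19 calls lost, 3 gained and 7 directions turned) and removal of the GC trend alone 28. Scaling by library size only ended 11 calls (G6pdx, Gad1, Insm1, Jak1, Kdm3a, Me1, Opn1sw, P4ha1, Pdk1, Rgr and Timp3), added B2m and Slc1a3 and turned Lifr. A fit of all 9 pools ended 37, DESeq2 ended 2, RLE scaling ended 1 (Rbp3), and thinning of the libraries to the smallest total ended 3. The median of the interleukin-1 and TNF family was 1.73 in thinned libraries, over 15 members tested there, against 1.62 for the same members in the full libraries. Directions turned for C1qa (-0.56 with GC and length trends removed, -0.50 with GC alone, and -0.017 and -0.049 without untreated replicates 1 and 2, with values of -0.049 to 0.371 when 1 pool was left out), Guca1b (-0.19 and -0.15), Rbp3 (-0.13 and -0.17), Slc32a1 (-0.013 in both) and Stx1a (-0.15 and -0.12). They also turned for Lifr (0.20 and 0.10, and 0.014 with library size only) and for Rdh5 with both trends removed (-0.003). Genes under about 1 CPM rest on few counts in untreated pools and are the least certain.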
